A study of Mus musculus with 6 samples.

Results

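The genes described here are 47 mouse genes of NF-kappaB and tumour necrosis factor (TNF) signalling: the transcription factor subunits, their inhibitors and kinases, receptors of the TNF, interleukin-1 and pattern-recognition families with their adaptors, feedback regulators, and a few well-known target genes. They were taken from a list of gene symbols, and all 47 were found among the 25528 genes of the deposited count tables. Their expression was measured by poly(A) RNA-seq in 3D-cultured organoids of the mouse gastric corpus, the acid-secreting body of the stomach. One group (Erbb2_OE_Corpus, 3 libraries) overexpressed Erbb2, a receptor tyrosine kinase of the EGF receptor family, and the other (Ctrl_Corpus, 3 libraries) had been transduced with an empty vector. The labels used here do not name the promoter that drives the transgene, the strain and age of the mice, any other engineered allele or how many clones a group holds. Nor do they say whether a group's libraries are separate cultures, so the spread that the p-values rest on may be technical.

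The libraries held 18735853 to 22767455 counted reads, and Erbb2 (ENSMUSG00000062312) stood at 125, 164 and 128 CPM (counts per 1000000 reads counted) in empty-vector replicates 1, 2 and 3 and at 342, 349 and 285 CPM in the Erbb2 replicates and was thus higher in every library labelled as overexpressing. The first principal component held 57.8% of the variance. Empty-vector replicates 1, 2 and 3 scored -20.0, -50.1 and 38.8 on it, and the Erbb2 replicates 1.71, -20.6 and 50.1. Replicate 3 thus stood apart in both groups, and each Erbb2 library scored above the empty-vector library of its number. Deviations from group means correlated between same-numbered libraries, more weakly for replicate 1 (0.333) than for replicates 2 and 3 (0.660 and 0.707). Every gene was therefore tested with edgeR's quasi-likelihood test in 2 forms, without and with the replicate number as a block, at an adjusted p of 0.05 (Benjamini-Hochberg over the 12593 genes with enough counts). Without the block, which was the main form, no gene passed (0% of genes tested, with 3.33% at an unadjusted p under 0.05). With the block 298 genes were higher with Erbb2 (2.37%) and 91 lower (0.723%). The block rests on a pairing taken from these same counts and not from the labels. Fold changes and adjusted p-values below are those with the block unless stated, and a gene is said to have risen only where it passed in that form. P-values in that form measure the spread left once the level of each replicate number is removed, not the full spread between libraries. Epithelial markers summed to between 7003 and 8658 CPM in the empty-vector libraries and between 8342 and 8656 CPM in the Erbb2 libraries, with all 7 detected. Of 12 immune cell markers 6 had no read in any library, among them Adgre1, Cd4, Cd8a and Itgax. The 12 summed to 20.8 to 54.2 CPM in the empty-vector group and 18.6 to 74.0 CPM in the Erbb2 group, nearly all of it Cd68. Cd68 was higher with Erbb2 in pairs 1 and 3 and slightly lower in pair 2 (log2 fold change 0.37, adjusted p = 0.149 by edgeR). Ptprc had at most 1.97 CPM and was lower with Erbb2 in each same-numbered pair (-0.87, adjusted p = 0.326 by edgeR). The 10 markers without enough counts reached at most 0.583 CPM. The part of immune cells in the results was not tested. Fibroblast markers summed to at most 1.72 and 1.87 CPM and endothelial markers to at most 1.97 and 10.2 CPM, the last from Tek in Erbb2 replicate 3. In bulk RNA, fewer cells of a type and less RNA per cell cannot be told apart.

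NF-kappaB is a family of dimeric transcription factors made from the subunits RelA, RelB, c-Rel, p50 (from Nfkb1) and p52 (from Nfkb2), held in the cytoplasm by inhibitory IkappaB proteins. Receptors for TNF, interleukin-1 and microbial products recruit TRAF, IRAK and RIP proteins, which activate the IkappaB kinase complex. That complex marks IkappaB for destruction, while a separate, non-canonical route through Map3k14 (NIK) and Chuk (IKK-alpha) processes p100 to p52. In the gastric epithelium the pathway is best known for its response to infection and injury, and several of its own inhibitors, such as Nfkbia and Tnfaip3, are direct target genes that end the response.

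Because a number of members are themselves NF-kappaB targets, the 250 bases before each RefSeq gene start (table of assembly GRCm38.p6, a different build from the GRCm39 of the deposited counts) were searched on both strands for the 10-base kappaB consensus, with overlapping matches merged. The table held 39 of the 47 members. Nfkb1, Relb, Nfkbiz, Ikbkb, Map3k8, Tlr4, Ripk2 and Tnfaip8 had no entry. Of the 39, 11 (28.2%) held a match in at least 1 window (Il1r1, Nfkb2, Nfkbia, Nfkbie, Rel, Sod2, Tlr2, Tlr3, Tnfaip3, Tnip1 and Traf3), against 4.46% of the 27025 genes in the table and 3.9% of its 32851 windows. The windows below are of some of the members with a match (in capitals), each with an estimate above 0. The windows also include that of Tnfaip2, the member with the largest fold change, which held no match. They are Tnfaip3 at chr10:19015411-19015660 (minus strand, matches 125 to 116 and 12 to 3 bases before the start), Nfkb2 at chr19:46304487-46304736 (plus strand, 39 to 29 and 11 to 2 bases before), Tnip1 at chr11:54962941-54963190 (minus strand, 58 to 47 bases before), Nfkbia at chr12:55492648-55492897 (minus strand, 29 to 20 bases before), Traf3 at chr12:111166120-111166369 (plus strand, 10 to 1 bases before) and Tnfaip2 at chr12:111442411-111442660 (plus strand).
Tnfaip3: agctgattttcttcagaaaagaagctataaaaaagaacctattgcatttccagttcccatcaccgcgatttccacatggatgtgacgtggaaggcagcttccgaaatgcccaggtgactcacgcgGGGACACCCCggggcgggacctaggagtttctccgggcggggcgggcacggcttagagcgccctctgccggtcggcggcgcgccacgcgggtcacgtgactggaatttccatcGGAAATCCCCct
Nfkb2: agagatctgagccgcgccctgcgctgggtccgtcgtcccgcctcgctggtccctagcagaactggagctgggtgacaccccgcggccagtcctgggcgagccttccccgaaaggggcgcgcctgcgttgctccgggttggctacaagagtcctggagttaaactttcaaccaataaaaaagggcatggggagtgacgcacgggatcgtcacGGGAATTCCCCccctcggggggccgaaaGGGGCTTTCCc
Tnip1: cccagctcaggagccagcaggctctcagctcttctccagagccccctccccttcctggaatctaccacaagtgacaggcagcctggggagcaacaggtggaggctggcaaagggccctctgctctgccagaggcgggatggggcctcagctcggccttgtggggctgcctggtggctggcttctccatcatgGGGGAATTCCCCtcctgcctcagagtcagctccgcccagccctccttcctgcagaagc
Nfkbia: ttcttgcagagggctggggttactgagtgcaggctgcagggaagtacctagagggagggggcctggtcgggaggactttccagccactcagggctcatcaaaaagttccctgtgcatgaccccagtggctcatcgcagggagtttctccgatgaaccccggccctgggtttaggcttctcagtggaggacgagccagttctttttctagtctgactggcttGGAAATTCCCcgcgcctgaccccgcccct
Traf3: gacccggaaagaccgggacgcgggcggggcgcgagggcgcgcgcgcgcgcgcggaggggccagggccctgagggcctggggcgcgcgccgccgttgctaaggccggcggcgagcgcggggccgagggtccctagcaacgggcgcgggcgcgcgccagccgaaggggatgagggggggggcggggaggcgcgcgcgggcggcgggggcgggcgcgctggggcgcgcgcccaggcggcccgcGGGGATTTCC
Tnfaip2: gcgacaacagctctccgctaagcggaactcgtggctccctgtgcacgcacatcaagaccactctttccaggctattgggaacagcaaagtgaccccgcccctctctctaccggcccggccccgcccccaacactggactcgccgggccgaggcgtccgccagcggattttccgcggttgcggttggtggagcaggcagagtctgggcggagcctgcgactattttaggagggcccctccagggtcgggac
A match describes these letters only. Tnfaip3 and Nfkb2 each held 2 separate matched stretches in the window shown, and the others with a match held 1. Of the 11 members with a match 9 had a log2 fold change above 0 and 1 rose (Tnfaip3), with a median of 0.22. The 2 below 0 were Sod2 (-0.24) and Tlr2 (-0.52), whose windows are not shown. Of the 27 tested members in the table without a match 18 were above 0 and 3 rose (Tnfaip2, Tnfrsf1b and Ikbke), with a median of 0.08. The difference between members with and without a match was not tested. As the list holds known target genes, its share of matches beside all genes is no test of enrichment.

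Of the 47 members 46 had enough counts to be tested, and 4 rose with Erbb2: Tnfaip2, Tnfaip3, Tnfrsf1b and Ikbke (8.7% of 46, beside 2.37% of all genes). None fell (0 of 46, beside 0.723% of all genes), with 3 below 0 at an unadjusted p under 0.05 (6.52%, beside 7.21% of all genes). At the same unadjusted level 10 members were higher (21.7%, beside 9.64%). The members were chosen with earlier results of these data known, so these shares describe the list and are no test of enrichment. DESeq2 and limma voom with the block also placed no member lower. The shifts were small: 33 of 46 members had a log2 fold change above 0, or 71.7% beside 48.4% of all genes, and the median was 0.15 beside -0.01. Without the block edgeR called none of the 46. At an unadjusted p under 0.05 that form had 3 (Tnfaip2, Tnfaip3 and Irak2), all higher. DESeq2 without the block called 1 (Tnfaip2, adjusted p = 0.000503), beside 0.222% of all genes called higher by that tool, and limma voom called none.

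**Figure D1:**
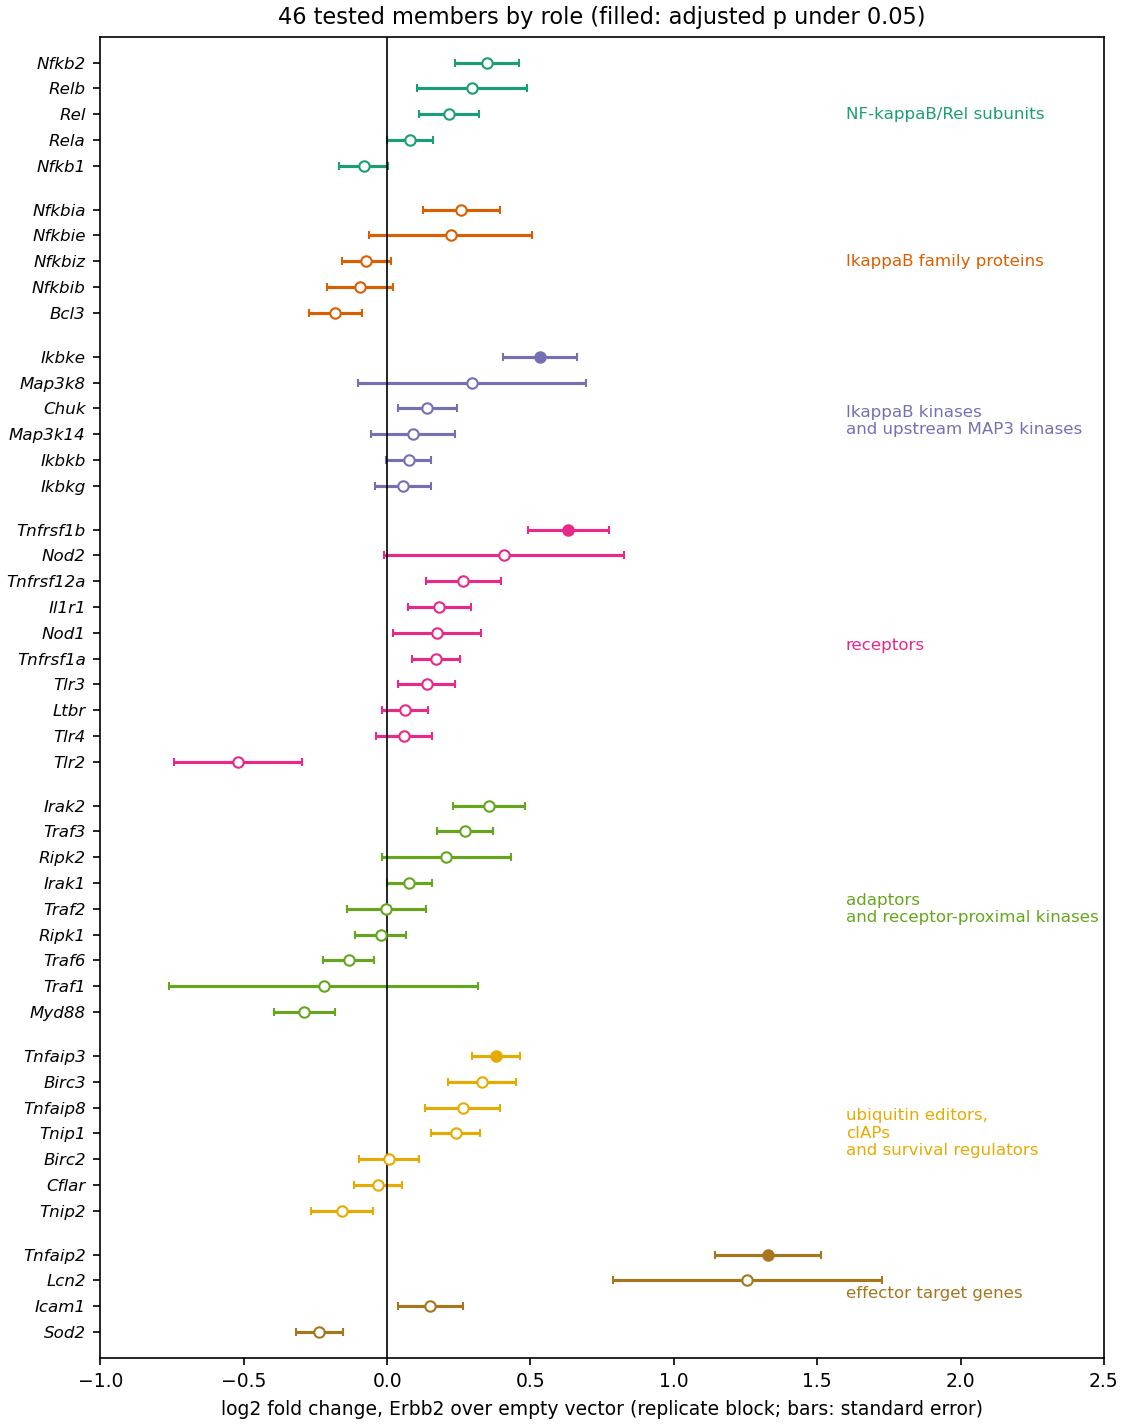
Log2 fold change of Erbb2-overexpressing over empty-vector organoids for the 46 tested members, ordered within 7 roles, from edgeR with the replicate block. Points are estimates, bars are standard errors and filled points have an adjusted p under 0.05: only Ikbke, Tnfrsf1b, Tnfaip3 and Tnfaip2 are filled, and 33 of the 46 points lie above 0.

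The subunits moved little and none of the 5 passed the threshold. Estimates for 4 of 5 lay above 0, with a median log2 fold change of 0.22. Nfkb2, the precursor of p52 in the non-canonical route, came closest. It stood at 34.6, 32.1 and 45.6 CPM in empty-vector replicates 1, 2 and 3 and at 51.8, 43.6 and 46.8 CPM in the Erbb2 replicates. Replicates 1 and 2 were higher with Erbb2, replicate 3 was almost level, and the groups overlapped (log2 fold change 0.35, SE 0.11, adjusted p = 0.134 by edgeR). Its partner Relb had the same form, at 12.8, 10.6 and 18.2 CPM against 21.2, 15.4 and 14.7 CPM, so that replicate 3 went the other way (log2 fold change 0.30, adjusted p = 0.483). Rela, which carries the main activating subunit, was the most abundant of the 5 per exon length, at 40.0 CPM per kilobase without and 42.2 CPM per kilobase with Erbb2. Its libraries held 116, 113 and 141 CPM against 131, 121 and 137 CPM, fully overlapping (log2 fold change 0.08, adjusted p = 0.683). Rel, the subunit best known from lymphocytes, was higher in all 3 pairs by 0.19 to 0.27 on the log2 scale (0.22, adjusted p = 0.317). Nfkb1 was the only subunit below 0 (-0.08, adjusted p = 0.701). On the scale of CPM per kilobase the other 4 subunits lay between 3.48 and 8.16 in the empty-vector group.

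The IkappaB family split, with 2 of 5 members above 0, a median of -0.07 and none past the threshold or at an unadjusted p under 0.05. Nfkbia, the classical inhibitor that NF-kappaB itself induces, stood at 42.4, 34.2 and 45.9 CPM without and 49.3, 55.1 and 42.9 CPM with Erbb2. Again replicates 1 and 2 were higher and replicate 3 was not (0.26, SE 0.13, adjusted p = 0.368). Nfkbiz, a nuclear IkappaB protein that serves as a co-activator, had the highest CPM of the 5, at 182, 160 and 78.9 CPM against 152, 157 and 83.7 CPM. Its level followed the replicate number: both libraries of replicate 3 were near a level well under the other 4, and the groups overlapped (-0.07, adjusted p = 0.742). Bcl3, another nuclear family member, was the highest per exon length (48.9 CPM per kilobase without and 43.1 with Erbb2) and its log2 estimate was -0.18 (adjusted p = 0.350). Nfkbie was the scarcest, between 1.71 and 5.38 CPM over the 6 libraries (0.22, adjusted p = 0.756), and Nfkbib had a log2 fold change of -0.09.

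All 6 kinases had estimates above 0, with a median of 0.12, and 1 of them rose. Ikbke encodes IKK-epsilon, a relative of the IkappaB kinases that also phosphorylates interferon regulatory factors. It was at 16.5, 16.0 and 36.3 CPM in the empty-vector replicates and at 27.3, 27.0 and 42.0 CPM in the Erbb2 replicates. Each pair was higher with Erbb2, but empty-vector replicate 3 lay above Erbb2 replicates 1 and 2, so the groups overlapped (22.9 ± 11.5 against 32.1 ± 8.58 CPM, SD, n = 3). The rise was 1.45-fold (log2 0.53, SE 0.13, adjusted p = 0.0449 by edgeR), just inside the threshold, and the call was lost with upper-quartile scaling (adjusted p = 0.0506), limma voom (0.0745) or no filter on low counts (0.0527). The core complex was nearly level. Ikbkb, its main catalytic subunit, had 81.7, 66.5 and 90.8 CPM against 85.2, 71.3 and 95.0 CPM (0.08, adjusted p = 0.702). The scaffold Ikbkg and the kinase Chuk had log2 fold changes of 0.06 and 0.14 (adjusted p of 0.833 and 0.548). Map3k14, the kinase of the non-canonical route, was within a narrow band of 11.0 to 12.3 CPM in the 6 libraries. Its groups did not overlap, yet the difference was 0.09 on the log2 scale (adjusted p = 0.814). Map3k8 had at most 1.81 CPM (0.30, adjusted p = 0.773).

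Among the 10 receptors 9 had estimates above 0, with a median of 0.17, and 1 rose. Tnfrsf1b encodes TNFR2, the TNF receptor that lacks a death domain. It was at 10.8, 11.5 and 20.0 CPM without and 19.7, 19.4 and 25.4 CPM with Erbb2. Every pair was higher, and only empty-vector replicate 3 reached the range of the Erbb2 libraries (14.1 ± 5.17 against 21.5 ± 3.40 CPM, SD, n = 3). The rise was 1.55-fold (log2 0.63, SE 0.14, adjusted p = 0.0317 by edgeR). The death-domain receptor Tnfrsf1a was far more abundant per exon length in the empty-vector group, at 32.0 CPM per kilobase beside 3.69 for Tnfrsf1b. It was higher in all 3 pairs by a smaller amount (70.5, 95.4 and 83.1 CPM against 87.9, 102 and 89.2 CPM, log2 fold change 0.17, adjusted p = 0.327). Ltbr, the lymphotoxin-beta receptor that feeds the non-canonical route, had the highest level per exon length, at 38.8 CPM per kilobase without and 40.5 with Erbb2. Its libraries were at 87.0, 102 and 85.5 CPM against 98.3, 102 and 86.2 CPM, overlapping (0.06, adjusted p = 0.763). Tnfrsf12a, the receptor of the cytokine TWEAK, was higher in replicates 1 and 2 and lower in replicate 3 (50.6, 25.9 and 59.9 CPM against 66.5, 39.5 and 54.2 CPM, 0.27, adjusted p = 0.346).

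Pattern-recognition and interleukin-1 receptors showed no call. Tlr2, a receptor for bacterial lipopeptides, was the sole receptor below 0. It stood at 5.19, 16.4 and 0.860 CPM without and 3.58, 12.5 and 0.250 CPM with Erbb2. Each pair was lower with Erbb2, but the spread between replicate numbers was 4.64 on the log2 scale, far beyond the group difference (-0.52, SE 0.22, adjusted p = 0.264). Erbb2 replicate 3 held 6 reads of this gene. Il1r1 and Tlr3 were higher in all 3 pairs without passing (0.18 and 0.14, adjusted p of 0.441 and 0.540), as was Nod1 (0.17, adjusted p = 0.635), and Tlr4 had a log2 fold change of 0.06. Nod2 lay between 0.278 and 2.45 CPM (0.41, adjusted p = 0.692).

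The adaptors and receptor-proximal kinases had 4 of 9 members above 0, a median of -0.00 and none past the threshold, with 2 higher and 1 lower at an unadjusted p under 0.05. Irak2, a kinase of the interleukin-1 and Toll-like receptor complexes, was at 21.8, 19.2 and 20.8 CPM without and 26.9, 30.1 and 22.8 CPM with Erbb2. Its groups did not overlap (0.35, SE 0.13, adjusted p = 0.174 by edgeR). Traf3, which keeps Map3k14 low in resting cells, had 41.8, 35.7 and 47.8 CPM against 52.2, 47.7 and 50.9 CPM. It was higher in all 3 pairs, and Erbb2 replicate 2 fell just short of empty-vector replicate 3 (0.27, SE 0.10, adjusted p = 0.174). Myd88, the adaptor shared by the interleukin-1 and most Toll-like receptors, went the other way in all 3 pairs, at 32.9, 36.4 and 29.1 CPM without and 26.3, 33.2 and 21.8 CPM with Erbb2. Its groups overlapped (-0.29, SE 0.11, adjusted p = 0.186). Irak1 was the most abundant adaptor by CPM and per exon length (27.2 CPM per kilobase without Erbb2), at 126, 126 and 132 CPM against 132, 126 and 149 CPM (0.08, adjusted p = 0.685). The remaining 5 were Ripk2 (0.21), Traf2 (-0.00), Ripk1 (-0.02), Traf6 (-0.13) and Traf1 (-0.22), with adjusted p-values from 0.501 to 0.996. The estimate for Traf2 was so near 0 that its sign was positive without the block (0.01) and negative with it. Traf1 had at most 1.29 CPM.

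The ubiquitin editors and survival regulators had 5 of 7 members above 0, a median of 0.24 and 1 rise. Tnfaip3 encodes the deubiquitinating enzyme A20, which switches the pathway off. Empty-vector replicates 1, 2 and 3 held 71.0, 77.9 and 69.4 CPM and the Erbb2 replicates 98.7, 101 and 84.7 CPM. All 3 Erbb2 libraries lay above all 3 empty-vector libraries (72.8 ± 4.48 against 94.8 ± 8.89 CPM, SD, n = 3). The rise was 1.30-fold (log2 0.38, SE 0.08, adjusted p = 0.0274 by edgeR), with paired log2 differences of 0.47, 0.38 and 0.29. Tnip1 encodes a partner that brings A20 to its substrates, and it was the most abundant of the 7 per exon length (28.9 CPM per kilobase without and 34.0 with Erbb2). It had 99.4, 86.2 and 122 CPM against 115, 114 and 131 CPM, higher in every pair but overlapping (0.24, SE 0.08, adjusted p = 0.171). Birc3, the inducible ubiquitin ligase cIAP2, was likewise higher in every pair, at 19.5, 15.4 and 24.1 CPM against 23.4, 22.4 and 28.3 CPM (0.33, SE 0.12, adjusted p = 0.179). Its constitutive relative Birc2 was level (0.01), as was Cflar, the caspase-8 inhibitor c-FLIP (-0.03). For Tnfaip8 the estimate was 0.26 (adjusted p = 0.335) and for Tnip2 -0.16 (adjusted p = 0.517).

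The 5 target genes in the list did not move as a block: 1 rose, 3 did not pass and 1 had no reads. Tnfaip2, a TNF-inducible gene whose product takes part in membrane protrusion, was at 12.9, 8.96 and 17.2 CPM in empty-vector replicates 1, 2 and 3 and at 32.9, 34.5 and 30.4 CPM in the Erbb2 replicates. The groups were well apart, with the lowest Erbb2 library above the highest empty-vector library (13.0 ± 4.11 against 32.6 ± 2.07 CPM, SD, n = 3). The rise was 2.51-fold (log2 1.33, SE 0.19, adjusted p = 0.00762 by edgeR), or 2.21- to 2.85-fold at 1 SE to either side. Per exon length it went from 2.61 to 6.54 CPM per kilobase. Without the block the estimate was 1.32 (adjusted p = 0.808 over all genes). Lcn2, the siderophore-binding protein lipocalin-2, had an estimate of similar size but far more spread, at 8.39, 0.732 and 1.81 CPM against 14.3, 9.17 and 2.54 CPM. It was higher in every pair, mostly in replicate 2, and its groups overlapped (1.26, SE 0.47, adjusted p = 0.265). Without the block its estimate of 1.23 went to 2.72 without empty-vector replicate 1 and to 0.64 without Erbb2 replicate 1. With the block and 1 pair left out it lay between 0.70 and 1.93, highest without the replicate 1 pair. Sod2, the mitochondrial superoxide dismutase, was lower in every pair, at 92.2, 114 and 69.7 CPM against 75.2, 92.8 and 64.0 CPM. The spread between replicate numbers exceeded the group difference, and the groups overlapped (-0.24, SE 0.08, adjusted p = 0.164). Icam1, a leukocyte adhesion molecule, had 37.3, 35.0 and 58.1 CPM against 44.7, 46.1 and 51.7 CPM, higher in replicates 1 and 2 only (0.15, adjusted p = 0.556). Saa1, an acute-phase protein, had 0 reads in all 6 libraries. A floor of 3 reads, chosen here, would be 0.125 to 0.170 CPM, and a level under it may be missed at this depth. Saa1 has near-identical copies in the genome, and how the authors counted reads shared between copies is not stated.

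**Figure D2:**
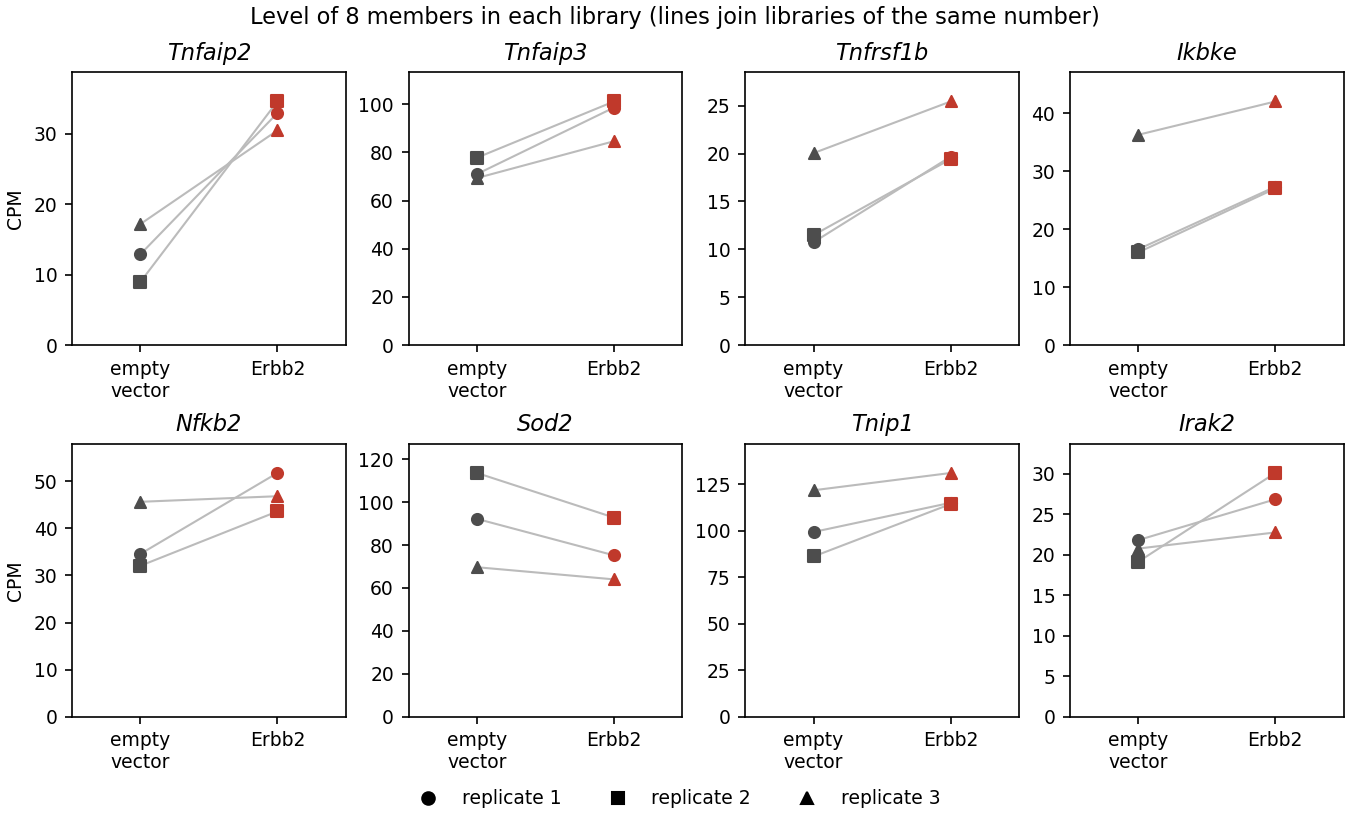
Level in CPM of 8 members in each library, with grey symbols for empty-vector and red for Erbb2-overexpressing organoids and lines joining libraries of the same replicate number. Tnfaip2, Tnfaip3 and Irak2 do not overlap between groups, Sod2 is lower in each pair, and Tnfrsf1b, Ikbke and Nfkb2 overlap because of empty-vector replicate 3.

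Levels per exon length differed far more between members than between groups. In the empty-vector organoids Bcl3, Rela and Ltbr were at the top (48.9, 40.0 and 38.8 CPM per kilobase), followed by Tnfrsf1a at 32.0, and Traf1, Map3k8 and Nod2 were at the bottom (0.0983, 0.264 and 0.294). Of the 4 members that rose, Tnfaip3 ranked 13 of 46 in this order (10.1 CPM per kilobase), and Tnfrsf1b (3.69), Tnfaip2 (2.61) and Ikbke (2.54) ranked 31, 35 and 36. The lengths are of the union of annotated exons, so a gene expressed as a short isoform reads low on this scale.

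**Figure D3:**
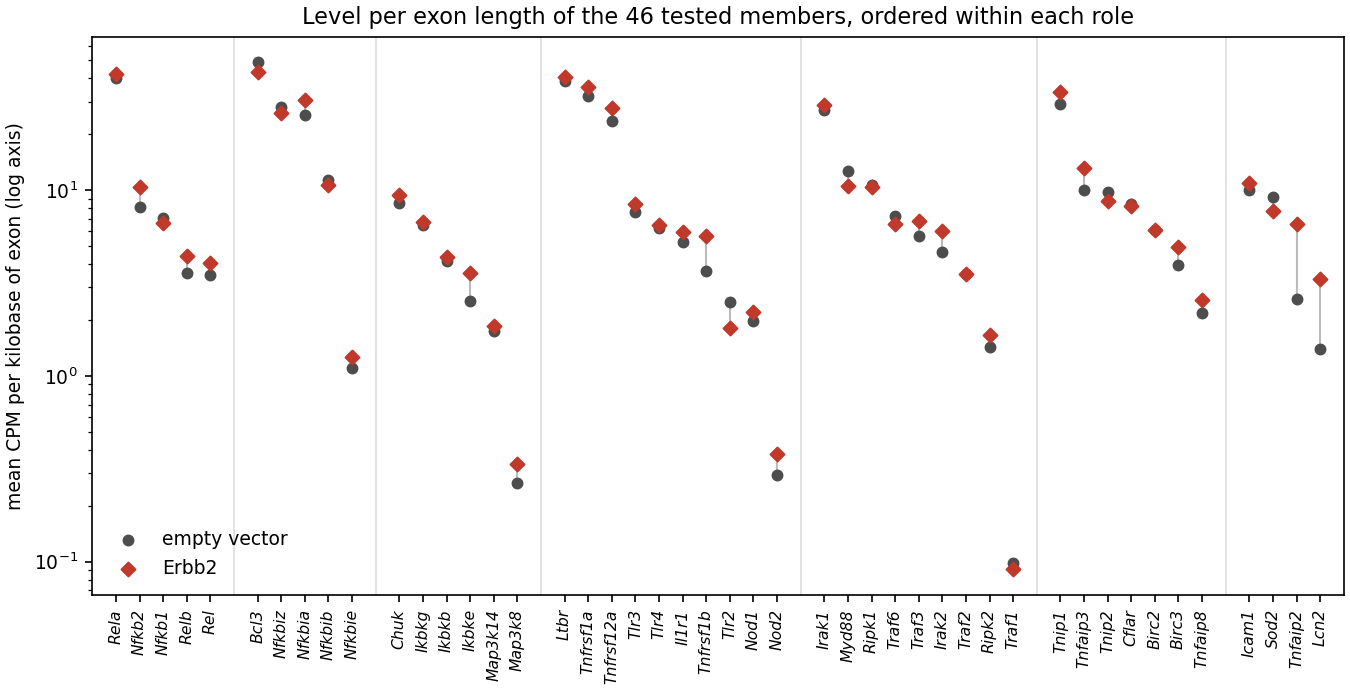
Mean level in CPM per kilobase of exon, on a log axis, of the 46 tested members in empty-vector (grey circles) and Erbb2-overexpressing organoids (red diamonds), ordered within each role by the empty-vector level. The symbols of most members nearly coincide, and the widest gaps are those of Tnfaip2 (2.61 to 6.54) and Lcn2 (1.39 to 3.31).

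For most members, as for most genes tested, the range between replicate numbers exceeded the difference between groups. A range over 3 replicate numbers and a difference between 2 groups are unlike measures, so this does not divide the spread between them. For 36 of the 46 (78.3%, beside 85.7% of all genes tested) the range between the 3 replicate numbers, averaged over groups on a log2(CPM + 0.1) scale, was larger than the difference between groups. Tnfaip2 and Tnfaip3 were among the 10 for which it was not (ranges of 0.37 and 0.21). For Tnfrsf1b the range nearly equalled the difference (0.63 each), and for Ikbke it was larger (0.91). Across members, 19 were higher with Erbb2 in all 3 pairs (41.3%, beside 19.6% of all genes) and 5 lower in all 3 (Myd88, Sod2, Tlr2, Tnip2 and Traf6, beside 19.2%). Groups that did not overlap were seen for 4 members in the higher direction (Irak2, Map3k14, Tnfaip2 and Tnfaip3, 8.7% beside 4.27%) and for 0 in the lower (beside 4.48%). The median paired log2 difference of the 46 was 0.10, 0.16 and 0.07 in pairs 1, 2 and 3, with 33, 32 and 28 members above 0. All genes tested had medians within 0.01 of 0 in each pair.

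**Figure D4:**
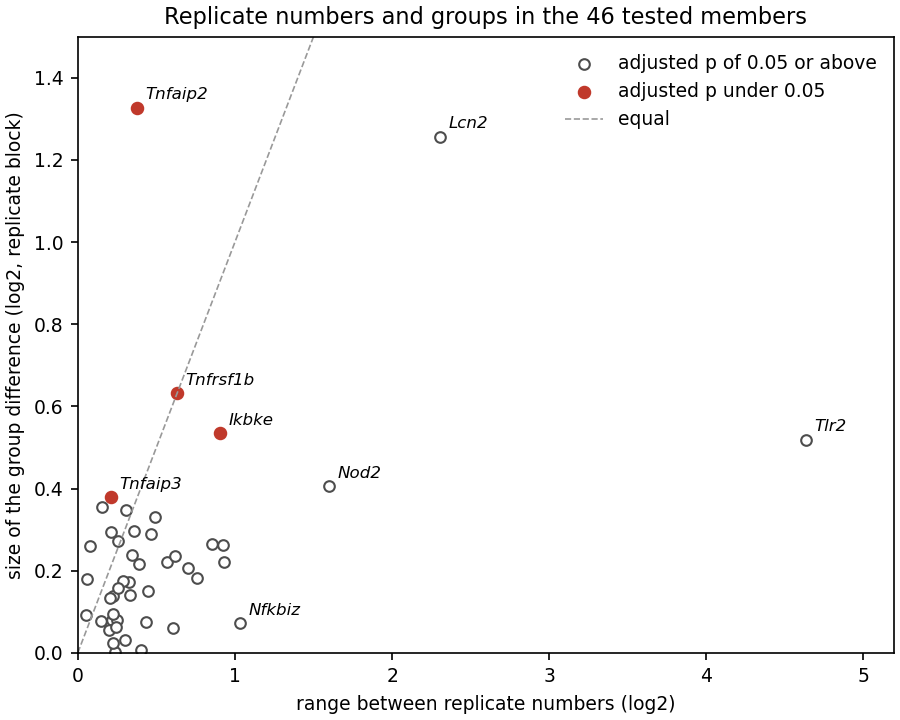
For each of the 46 tested members, the range between replicate numbers (horizontal, log2) against the size of the group difference with the replicate block (vertical, log2), with the dashed line where both are equal. Tnfaip2 and Tnfaip3 lie above the line, Tnfrsf1b lies on it, and Ikbke and most other members lie below it, with Tlr2 farthest right at 4.64.

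The calls depended on which pair of libraries was in the fit. Without the replicate 3 pair, edgeR with the block called 12 members higher (beside 6.15% of all genes) and 1 lower (beside 2.56%). The 12 included the same 4 genes and also Nfkb2 (log2 fold change 0.52, adjusted p = 0.000368), Relb (0.65, adjusted p = 0.00446), Nfkbia (0.45, adjusted p = 0.00251), Tnfrsf12a (0.50, adjusted p = 0.000553), Irak2 (0.48, adjusted p = 0.0129), Traf3 (0.37, adjusted p = 0.0166), Tnip1 (0.31, adjusted p = 0.0169) and Icam1 (0.33, adjusted p = 0.0485). The 1 lower was Sod2 (-0.29, adjusted p = 0.0385). Both subunits of the non-canonical dimer and the classical inhibitor were therefore called higher from pairs 1 and 2 alone. Of the target genes not called with all pairs, Icam1 was called higher and Sod2 lower. In pair 3 Relb, Nfkbia, Tnfrsf12a and Icam1 were lower with Erbb2. Calls over all genes also became fewer without the other pairs. Without the replicate 2 pair only Tnfaip2 was called (adjusted p = 0.00834), beside 0.95% of all genes called higher. Without the replicate 1 pair, where 1.37% of all genes were called higher, no member was, Tnfaip2 having an adjusted p of 0.0942, Tnfaip3 of 0.159, Tnfrsf1b of 0.181 and Ikbke of 0.206. The log2 estimate of Tnfaip2 was between 1.09 and 1.63 in these 3 fits.

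Beyond the 47 members, 112 further genes of the pathway were listed by role, and 78 were tested. This list was written with earlier results of these data known, so its shares beside all genes are no test of enrichment. With the block 8 rose (10.3% of 78, beside 2.37% of all genes) and 0 fell, with 2 lower at an unadjusted p under 0.05. DESeq2 and limma voom with the block placed 12 and 10 higher. Without the block edgeR called 0 of 78, with 7 at an unadjusted p under 0.05, all higher, while DESeq2 called 1 and limma voom 0. By role, 5 of 16 tested target genes were called (31.2%, median log2 fold change 0.77), beside 1 of 8 ligands, 1 of 13 receptors, 1 of 28 other signalling components and 0 of 13 negative regulators. The difference between these groups of genes was not tested.

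The 5 targets that rose were a stress-response gene, a prostaglandin synthase, a chemokine, an adhesion molecule and a growth factor. Ier3, an immediate early gene, was at 30.6, 32.6 and 46.5 CPM without and 52.3, 55.9 and 77.7 CPM with Erbb2, with no overlap (1.70-fold, log2 0.76, SE 0.09, adjusted p = 0.00125 by edgeR). Ptgs2, the inducible cyclooxygenase COX-2, had 32.1, 34.3 and 43.4 CPM against 55.3, 59.5 and 65.3 CPM, also with no overlap (1.65-fold, adjusted p = 0.00203). Ccl20, which attracts CCR6-bearing lymphocytes, had 12.9, 13.1 and 3.70 CPM against 19.7, 28.3 and 5.29 CPM. It was higher in every pair and low in both libraries of replicate 3 (1.72-fold, adjusted p = 0.0210). Vcam1, a partner of Icam1 in leukocyte adhesion, had 4.03, 1.63 and 6.24 CPM against 11.9, 8.27 and 9.58 CPM, with no overlap (2.48-fold, adjusted p = 0.0244). Csf2, the cytokine GM-CSF, had 1.25, 1.13 and 2.24 CPM against 5.41, 4.25 and 3.08 CPM, without overlap (2.66-fold, adjusted p = 0.0456).

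Of the ligands, receptors and signalling components, Il33, Il1rl2 and Ripk3 rose. Il33, an alarmin of the interleukin-1 family, was at 46.8, 22.1 and 161 CPM without and 65.1, 47.1 and 377 CPM with Erbb2. Replicate 3 was far above the others in both groups, and each pair was higher with Erbb2 (1.92-fold, adjusted p = 0.0115 by edgeR). Il1rl2, the receptor of the interleukin-36 cytokines, was scarce, at 0.741, 0.225 and 0.602 CPM against 3.31, 2.83 and 1.42 CPM. Its groups did not overlap (4.50-fold, log2 2.17, SE 0.44, adjusted p = 0.0197), and the empty-vector libraries held 4 to 16 reads. Ripk3, the kinase of necroptosis, had 6.30, 4.73 and 16.6 CPM against 11.3, 10.4 and 22.9 CPM, higher in every pair but overlapping (1.67-fold, adjusted p = 0.0332). Its substrate Mlkl did not pass (0.42, adjusted p = 0.132).

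Among the further pathway genes that did not pass, Cxcl1, a neutrophil chemokine, was nearest to the threshold. It had 8.76, 4.56 and 3.96 CPM against 16.0, 17.8 and 4.87 CPM, higher in every pair but overlapping (log2 fold change 1.08, SE 0.26, adjusted p = 0.0632 by edgeR). Il1a was higher in every pair with no overlap (7.14, 5.13 and 8.86 CPM against 12.3, 15.2 and 10.7 CPM, 0.82, adjusted p = 0.0735). Il18 was lower in every pair (42.5, 78.1 and 18.9 CPM against 36.3, 63.2 and 11.9 CPM, -0.37, adjusted p = 0.0884). The death receptors Tnfrsf10b and Tnfrsf21 had log2 fold changes of 0.30 and 0.25 (adjusted p of 0.102 and 0.136), and Rnf31, the catalytic part of the linear ubiquitin ligase, of 0.32 (adjusted p = 0.155). Of the negative regulators Commd1 was lower with no overlap (-0.35, adjusted p = 0.191), and Zc3h12a (0.37) and Tax1bp1 (0.15) did not pass. The upstream cytokine Tnf itself was low, at 2.83, 2.25 and 4.73 CPM against 4.19, 3.91 and 3.04 CPM, with replicate 3 lower with Erbb2 (0.15, adjusted p = 0.853). Il1b reached at most 0.0436 CPM, and Il6, Tnfsf11, Saa2 and Saa3 had 0 reads in every library, under the same chosen floor of 3 reads as Saa1. The 34 genes without enough counts had at most 0.872 CPM in any library.

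**Figure D5:**
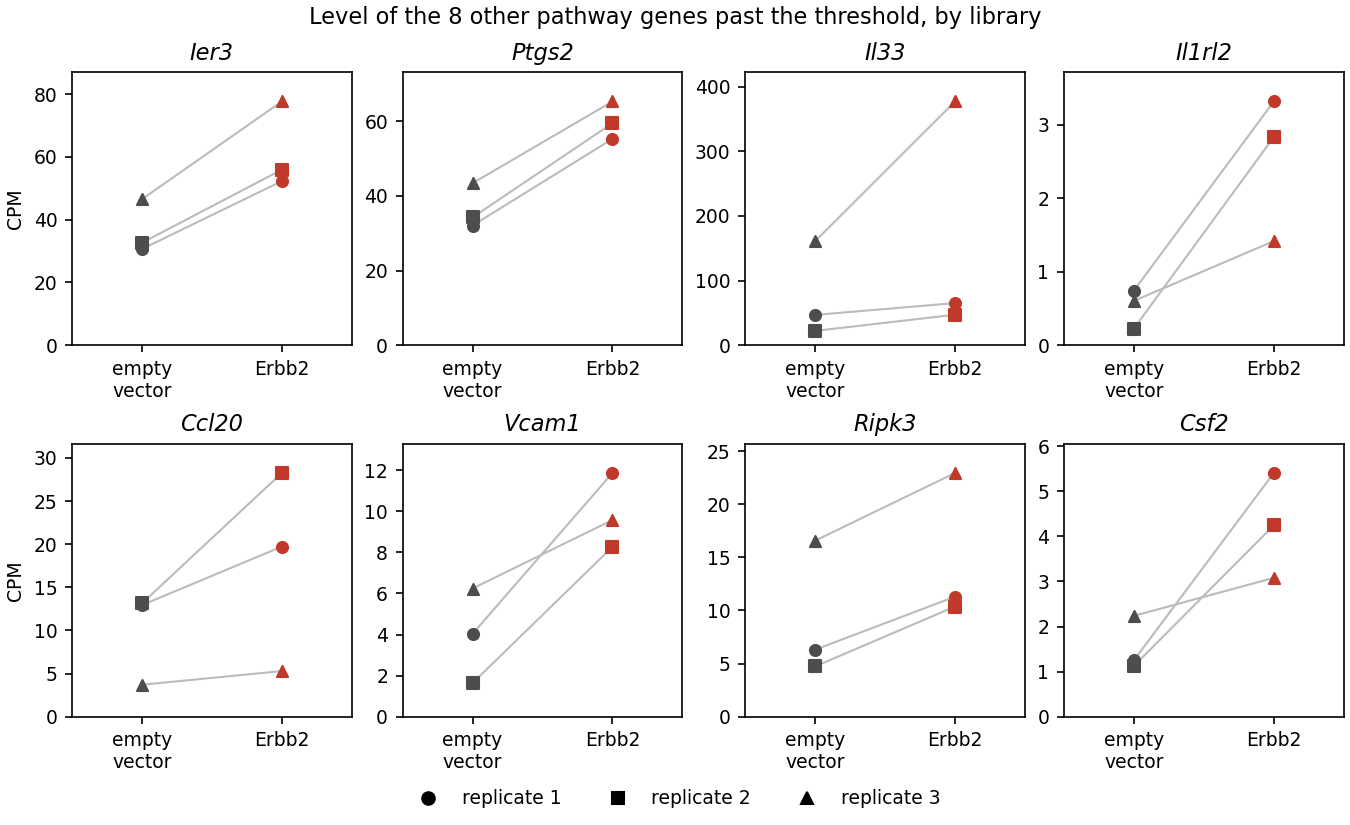
Level in CPM of the 8 further pathway genes with an adjusted p under 0.05, in each library, with lines joining libraries of the same replicate number. All 8 genes are higher with Erbb2 in each pair, and replicate 3 lies apart from the other replicates for Il33, Ripk3 and Ccl20.

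These further calls also depended on the pairs. Without the replicate 1 pair Ier3, Ptgs2 and Il33 were called (adjusted p of 0.00409, 0.00970 and 2.52e-05 by edgeR), beside 1.37% of all genes called higher. Without the replicate 2 pair 4 were called, beside 0.95% of all genes, and without the replicate 3 pair 20, beside 6.15%. The log2 estimate of Ier3 stayed between 0.76 and 0.78 in these 3 fits and that of Ptgs2 between 0.69 and 0.80. Csf2 had a log2 estimate of 2.03 without the replicate 3 pair, beside 1.41 with all pairs and 1.05 in the lowest of these 3 fits. Without the block, leaving out empty-vector replicate 3 moved Ripk3 from 0.68 to 1.44 and Il33 from 1.09 to 2.25, and leaving out Erbb2 replicate 3 moved them to 0.22 and -0.45. Csf2 was not called with limma voom or without the filter on low counts, and Ripk3 was not with limma voom (adjusted p = 0.0538).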

How the data were processed

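The authors deposited 1 table of raw read counts per gene and library. Reads were aligned with STAR to GRCm39 and counted with featureCounts, per the submitters' processing notes. The sources used here do not state versions, annotation or strandedness, so reads of overlapping or antisense genes cannot be told apart. Of 25528 Ensembl IDs, 25424 matched a symbol. Exon lengths (CPM per kilobase) came from GRCm38 gene models and promoter windows from RefSeq.

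Genes were kept by filterByExpr (minimum count 10), scaled by TMM and tested with edgeR 4.0.16 in R 4.3.3 (glmQLFit and glmQLFTest, robust moderation), checked on simulated data. The fit without a block was the main one. DESeq2 1.42.0, limma voom 3.58.1, other scalings and filters, and fits without each library or pair were alternatives. The labels give the groups the same replicate numbers but not what a number stands for. Deviations from group means correlated at 0.333, 0.660 and 0.707 between same-numbered libraries, each library best with its own number. The numbers were therefore taken to pair the libraries, from these counts and not from the labels.

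Per-library values are printed for members with an unadjusted p under 0.05 in either fit and for the member with the highest CPM in each role. Of the further pathway genes, those called and the 3 with the smallest p per role are named. Values of Relb, Nfkbia, Tnfrsf1a, Tnfrsf12a, Icam1, Tnf and Cxcl1 were added after they were seen. Members and lists were chosen with earlier results of these data known.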

Additional observations from a re-analysis of the deposited data

How the results depend on the processing

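Without a replicate block the count of members called higher was 0 under TMM, relative log expression and upper-quartile scaling, limma voom, the earlier form of the edgeR fit and both other filters, and 1 under DESeq2. With the replicate block it was 4, and 4 with relative log expression, 4 with DESeq2, 4 with the earlier form and 4 with at least 1 CPM in 3 libraries, and 3 with upper-quartile scaling, 3 with limma voom and 3 with no filter. Over fits that leave out a library or a pair it ranged from 0 to 12, and the count called lower from 0 to 1. For the other pathway genes the count called higher was 0 without and 8 with the replicate block, 1 under DESeq2 without it, and, with the block, 8 with relative log expression, 8 with upper-quartile scaling, 12 with DESeq2, 10 with limma voom, 8 with the earlier form, 7 with no filter and 8 with at least 1 CPM in 3 libraries. It ranged from 0 to 20 over fits that leave out a library or a pair. None was called lower in any of these fits. The cause of these differences was not tested.

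Of 64 genes with single values, 42 kept the sign of their log2 fold change under all alternatives, and 22 did not. Traf2 changed sign without a library being left out: -0.0080 with limma voom, -0.0028 with the replicate block, -0.0034 with the block and upper-quartile scaling, -0.0091 with the block and limma voom, and -0.0021 with the block and no filter. The others changed sign only when a library or pair was left out. Over those fits the lowest and highest log2 fold changes, Traf2 included, were as follows. Nfkb1 ranged from -0.16 to 0.011, Nfkbib from -0.18 to 0.00065, Nfkbie from -0.13 to 0.75, Nfkbiz from -0.39 to 0.14, Ikbkb from -0.041 to 0.18, Ikbkg from -0.043 to 0.15 and Map3k8 from -0.011 to 0.64. Tnfrsf12a ranged from -0.049 to 0.50, Nod2 from -0.13 to 1.03, Tlr2 from -1.95 to 0.80, Tlr4 from -0.11 to 0.24, Traf1 from -0.81 to 0.21, Traf2 from -0.10 to 0.16, Ripk1 from -0.14 to 0.056 and Ripk2 from -0.031 to 0.45. Birc2 ranged from -0.13 to 0.11, Cflar from -0.12 to 0.066, Tnfaip8 from -0.0076 to 0.65 and Icam1 from -0.0067 to 0.40. Il18 ranged from -0.95 to 0.27, Il33 from -0.45 to 2.25 and Mlkl from -0.059 to 1.01.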
